A study of Caenorhabditis elegans with 15 samples.

Results

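The genes described here are the Rab GTPases of Caenorhabditis elegans together with a set of endocytic and recycling genes. Every gene whose symbol begins with rab- was taken (20 genes), and with them rme-1, rme-8, dyn-1, chc-1, snx-1, snx-3, vps-35 and lmp-1 (8 genes), provided that the 15 libraries together held at least 10 counts. All 28 genes with a matching symbol met this minimum, out of 19595 genes of the count table that met it and 46778 genes listed. Total counts ranged between 177 for rab-11.2 and 189181 for rab-11.1. Rab genes that carry another symbol, such as unc-108, aex-6 and glo-1, are not among the 28 and were placed with the other endocytic genes described further on.

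The libraries were made from total RNA of whole N2 worms, the standard wild-type strain, grown with E. coli OP50. Between 350 and 400 larvae of the first stage were placed in each well and kept for 72 h at 21 °C until adult day 1. SiO2 worms received 10 µg/ml silica nanoparticles, Ag worms received 10 µg/ml silver nanoparticles and Control worms received no particles, with 5 samples in each group. No group carried a mutation or a transgene, and each sample pooled the worms of a well. By the paper's methods and discussion, the particles were in the wells from the first larval stage until adult day 1. The labels instead place the incubation at adult day 1, and the counts cannot settle this difference. Each exposure was sampled at a single dose and a single time, and the amount of particle taken up by the worms was not measured. Worms were grown in individual wells by the methods of the study, which give more repeats of each condition than the 5 samples per group analysed here. Beyond that, the labels do not say that the samples came from separate cultures, so the p-values given here measure the spread between these samples, which may in part be technical.

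Libraries held between 16560734 and 24296570 counts assigned to genes. Values are given as CPM, the counts of a gene scaled to a common library size with the trimmed mean of M values (TMM) over all 15 libraries, and differences come from edgeR's quasi-likelihood test with Benjamini-Hochberg adjustment over all genes tested and a call at an adjusted p under 0.05. Over all genes, 551 genes were called for SiO2 against Control, 1604 for Ag against Control and 720 for SiO2 against Ag. Both exposures were set against the same 5 Control samples. The library of SiO2 sample 14 weighed on the comparison of the exposures, for which 2052 genes were called without it. In RNA of whole worms, fewer cells of a type and less RNA per cell cannot be told apart. Where values of 5 samples are listed, they run in the order of the sample numbers, which are 11 to 15 for SiO2, 6 to 10 for Ag and 1 to 5 for Control.

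Rab proteins are small GTPases that switch between a GDP-bound form held in the cytosol and a GTP-bound form on a membrane, where they recruit the motors, tethers and coats that move a vesicle to its target. In an endocytic route, clathrin and dynamin form the vesicle, RAB-5 marks the early endosome, RAB-10, RAB-11 and RME-1 act in the return of cargo to the cell surface, the retromer returns cargo to the Golgi, and RAB-7 carries the remainder to the lysosome. In C. elegans the intestine faces ingested material and depends on this recycling at both of its surfaces, oocytes take up yolk by receptor-mediated endocytosis, and coelomocytes clear fluid from the body cavity. Several rme genes were named for defects in yolk uptake by oocytes.

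All 28 genes were detected in every sample, at levels per unit of length that differed widely. Counts divided by the length of the merged exons were highest for rab-11.1, which encodes a recycling-endosome Rab, at 506 ± 18.2 CPM per kb in SiO2 worms, 517 ± 23.6 in Ag worms and 524 ± 31.3 in Control worms (SD, n = 5 each). In Control worms, rab-11.1 alone held 26.5% ± 0.595 of the summed per-length level of the 20 rab genes. Next came rab-1, a Rab of transport between the endoplasmic reticulum and the Golgi, with 308 ± 13.2 CPM per kb in SiO2 worms, 309 ± 6.58 in Ag worms and 321 ± 25.3 in Control worms. Neither gene overlapped the next lower one in the 5 Control samples. Below them, lmp-1, rab-7, rab-5 and rab-10 lay between 231 and 162 CPM per kb in Control worms, and their order was not resolved because the ranges of neighbours overlapped.

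The paralogue rab-11.2 was the lowest of the 28 genes, with 0.801 ± 0.427 CPM per kb in SiO2 worms, 0.742 ± 0.390 in Ag worms and 0.765 ± 0.224 in Control worms (SD, n = 5 each). It rested on 4 to 21 counts per sample, so that its fold changes had the widest intervals of the set. The pair is therefore unequal by far in whole worms, and little can be said of the lower copy at this depth. The other low genes were rab-37, related to a mammalian Rab of secretory granules, at 2.43 ± 0.316 CPM per kb in Control worms, and rab-28, a Rab of the cilia of sensory neurons, at 7.58 ± 1.42. The 16 genes that followed the leading 6 and ended with vps-35 lay between 92.5 and 28.3 CPM per kb in Control worms, each with a range that overlapped its lower neighbour's. From rab-33 downwards, through rme-8, rab-30, rab-28, rab-37 and rab-11.2, no range overlapped the next in the Control samples.

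**Figure D1:**
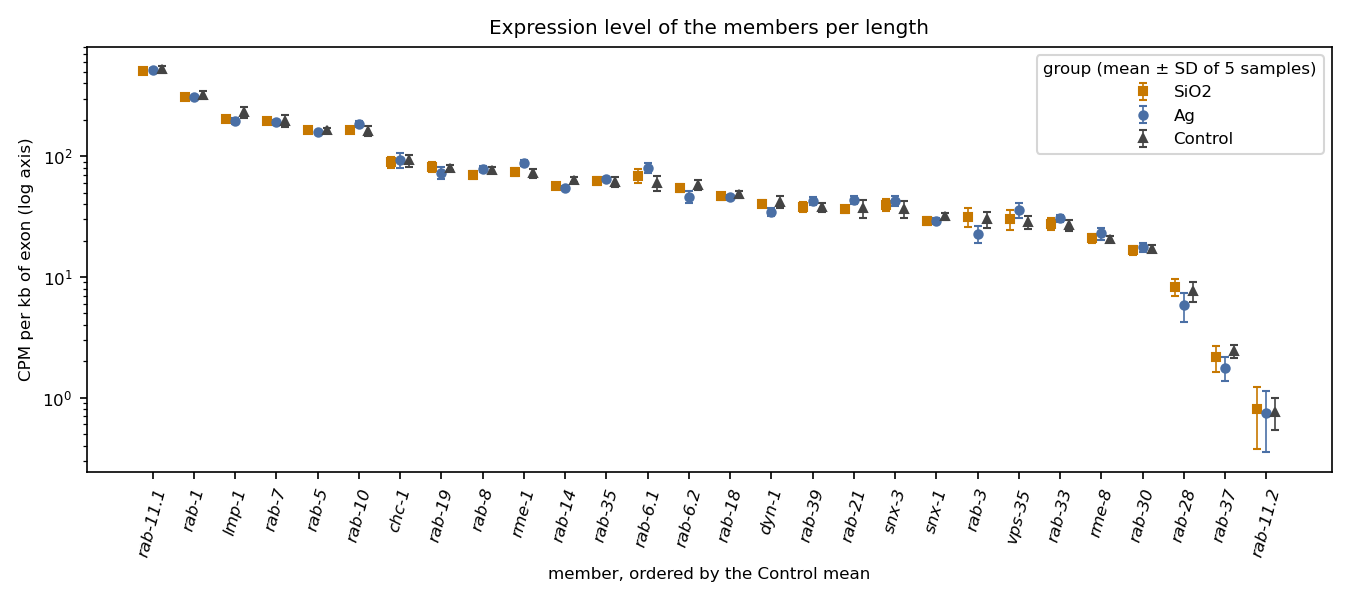
Expression level of each of the 28 genes in CPM per kb of exon on a log axis, ordered by the Control mean, with squares for SiO2, circles for Ag and triangles for Control (mean ± SD of 5 samples). The order runs down to 0.765 CPM per kb for rab-11.2 in Control worms, and the 3 groups differ little beside the range between genes.

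The summed level of the 20 rab genes was alike in the 3 groups. It ranged between 1908 and 1979 CPM per kb in SiO2 worms, between 1928 and 2006 in Ag worms and between 1879 and 2103 in Control worms. The Control samples thus spread more widely than either exposure, and they enclosed all 10 exposed samples.

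For SiO2 against Control, none of the 28 genes was called by edgeR's quasi-likelihood test, where 2.66% of the 20739 genes tested were called. At an unadjusted p under 0.05 there were 2 genes, lmp-1 and rab-14, both lower in SiO2 worms, against a background of 14.9% in either direction and 5.97% lower. DESeq2 and edgeR's likelihood ratio test also called 0 of the 28, where they called 5.55% and 5.28% of all genes given an adjusted p. Log2 fold changes ran between -0.19 for lmp-1 and 0.20 for rab-6.1, and the median absolute value was 0.05, compared with 0.12 over the 14287 genes with at least 1 CPM on average. The 95% interval of the fold change stayed within 1.5-fold in either direction for 27 of 28 genes, with rab-11.2 as the exception, and for 71.3% of those 14287 genes. The 14287 genes were not matched to the 28 in expression level, so these comparisons do not show an unusually small response. The intervals bound the response of this machinery to SiO2 at the transcript level, without showing that it was nil.

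For Ag against Control, 1 of the 28 genes was called, rab-6.1, which was higher in Ag worms, where 7.76% of 20669 genes tested were called, 4.35% higher and 3.41% lower. At an unadjusted p under 0.05 there were 9 genes, against a background of 29.9%, of which 15.3% were higher and 14.6% lower. Of these, rab-6.1, rme-1 and vps-35 were higher in Ag worms, and dyn-1, lmp-1, rab-14, rab-3, rab-37 and rab-6.2 were lower. The groups did not overlap for 4 of 28 genes, rab-6.1 and rme-1 higher and rab-14 and rab-6.2 lower, against a background of 9.2%, with 4.29% higher and 4.91% lower. Intervals within 1.5-fold were found for 23 of 28 genes and for 50.5% of the 14287 genes with at least 1 CPM, which again were not matched in level. The count of calls depended on the test, since edgeR's likelihood ratio test called 3 of the 28 (10.7%, background 13.4%) and DESeq2 called 6 (21.4%, background 20% of the genes it gave an adjusted p), and leaving out single samples gave between 0 and 3, the highest without Ag sample 6.

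For SiO2 against Ag, none of the 28 genes was called by edgeR's quasi-likelihood test, with 3.4% of 21180 genes called overall. At an unadjusted p under 0.05 there were 7 genes, with dyn-1, rab-28, rab-3 and rab-6.2 higher in SiO2 worms and rab-21, rab-8 and rme-1 lower, against a background of 20.9%, with 13.2% higher and 7.72% lower. The likelihood ratio test called 1 gene, rab-3 (background 6.96%), and DESeq2 called 2 (background 10.7%), rab-3 and rme-1, which were also the 2 called when SiO2 sample 14 was left out. Thus in none of the 3 comparisons was the share of the 28 genes called by the quasi-likelihood test above that of all genes, and its only call among them separated Ag from Control worms. With DESeq2 the share for Ag against Control was close to that of all genes.

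**Figure D2:**
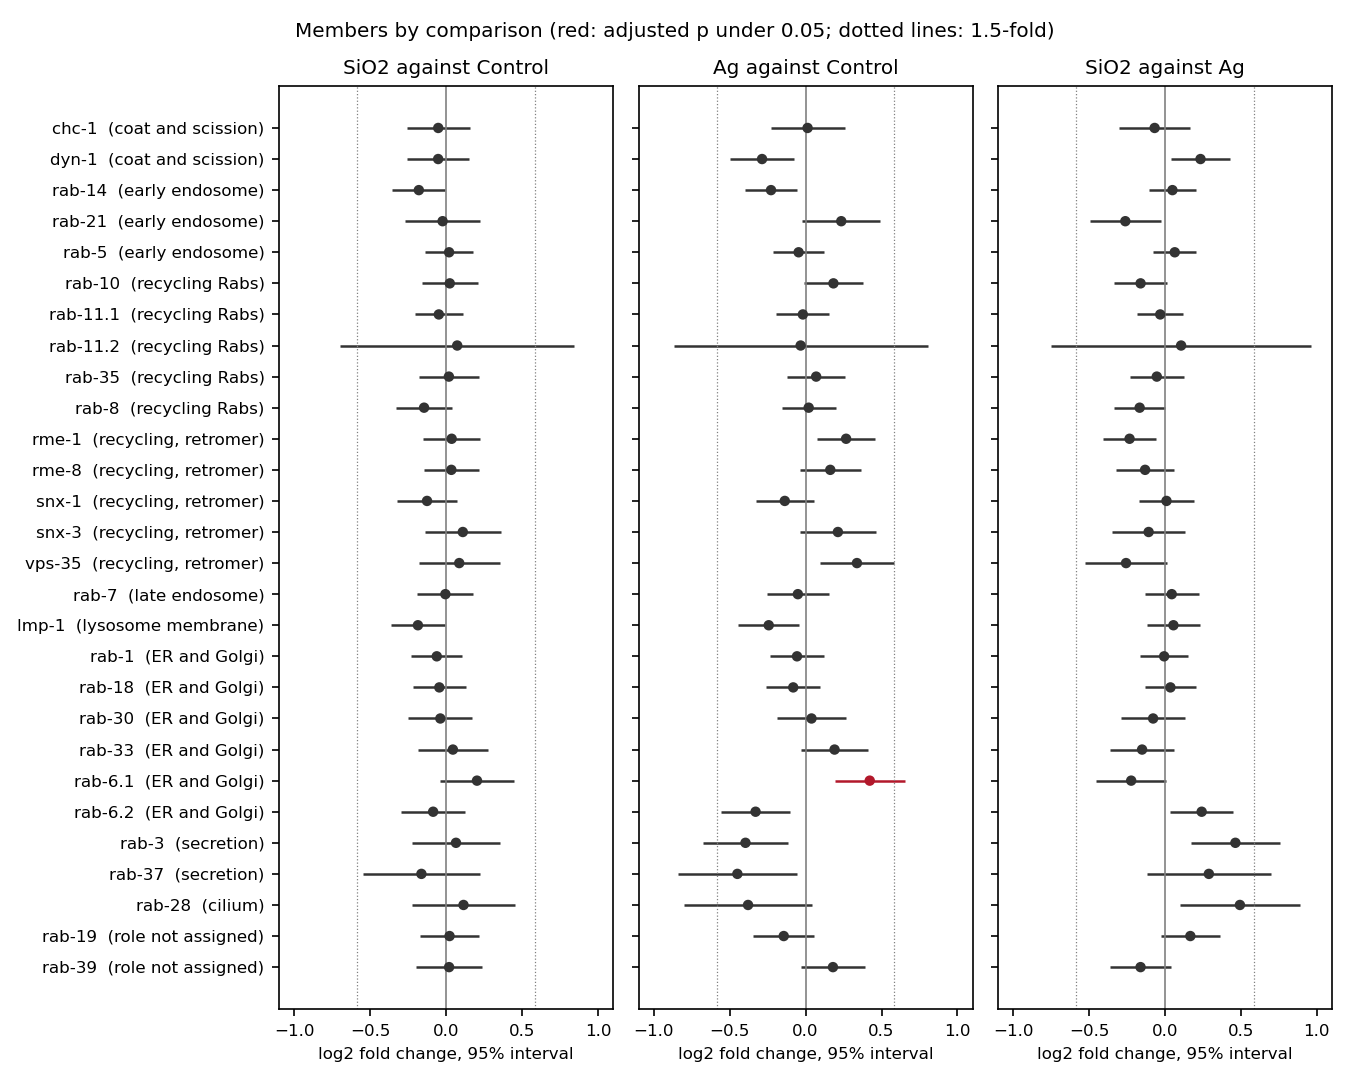
Log2 fold change of each of the 28 genes with its 95% interval in the 3 comparisons, grouped by role from coat and scission to genes with no role assigned, with dotted lines at 1.5-fold and the called gene in red. The interval of rab-6.1 for Ag against Control, 0.19 to 0.65, is the red one, and the rab-11.2 interval is the widest in each panel.

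The genes that form the endocytic vesicle came first on the route. Clathrin heavy chain, chc-1, builds the coat. It had 473, 399, 499, 544 and 487 CPM in SiO2 worms, 407, 489, 466, 589 and 566 CPM in Ag worms, and 431, 452, 511, 567 and 534 CPM in Control worms. The 3 groups covered nearly the same range, and the log2 fold change was -0.05 ± 0.0978 (SE) for SiO2 and 0.01 ± 0.1145 for Ag against Control. The 95% interval of the fold ran between 0.835 and 1.11 for SiO2 and between 0.852 and 1.19 for Ag.

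Dynamin, dyn-1, pinches the vesicle off the membrane. Its values were 113, 97.5, 114, 108.4 and 114 CPM in SiO2 worms, 90.7, 97.0, 82.4, 95.1 and 100.2 CPM in Ag worms, and 97.4, 112, 122.2, 131 and 105 CPM in Control worms. All Ag samples but sample 10 lay below every Control sample, and Ag sample 10 exceeded only Control sample 1. For Ag against Control the log2 fold change of dyn-1 was -0.29 ± 0.0998, with an adjusted p of 0.0811 (edgeR, Benjamini-Hochberg), and for SiO2 against Control it was -0.05 ± 0.0954. SiO2 against Ag gave 0.23 ± 0.0923 with an adjusted p of 0.158.

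On the early endosome, rab-5 was the steadiest of the well expressed genes. It had 176, 176, 176, 181 and 185 CPM in SiO2 worms, 172, 164, 171, 175 and 173 CPM in Ag worms, and 168, 171, 178, 186 and 179.9 CPM in Control worms. Every SiO2 sample lay above every Ag sample, the only such case among the 28 genes for SiO2 against Ag (background 4.8%, or 2.48% higher), while both exposures overlapped Control. The size of that difference was small, at a log2 fold change of 0.06 ± 0.0681 for SiO2 against Ag with an adjusted p of 0.606 (edgeR, Benjamini-Hochberg). Against Control, the fold change had a 95% interval of 0.908 to 1.13 for SiO2 and 0.864 to 1.09 for Ag.

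The gene rab-14 acts in C. elegans in the maturation of endosomes and phagosomes, and its values are listed because its groups were seen not to overlap. SiO2 worms had 74.9, 72.8, 76.7, 66.8 and 76.3 CPM, Ag worms had 69.1, 71.4, 69.5, 70.0 and 75.2 CPM, and Control worms had 79.4, 84.3, 88.2, 85.9 and 78.1 CPM. All 10 exposed samples lay below all 5 Control samples. It was the only one of the 28 genes without overlap between SiO2 and Control, where 3.73% of all genes did not overlap, 1.86% being lower. The shift amounted to -0.18 ± 0.0827 for SiO2 (adjusted p = 0.318) and -0.23 ± 0.0813 for Ag (adjusted p = 0.0872) on the log2 scale, so that neither was called by edgeR's quasi-likelihood test. Among the 18 alternatives for Ag, the filterByExpr gene filter and DESeq2 called rab-14, whose adjusted p ranged between 0.0302 and 0.209. The third gene of this step, rab-21, an endosomal Rab that acts with integrins in mammals, averaged 28.3 ± 1.90 CPM in SiO2 worms, 33.96 ± 2.65 CPM in Ag worms and 28.9 ± 4.86 CPM in Control worms (SD, n = 5 each).

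Recycling to the cell surface is where C. elegans genetics has tied the Rabs most closely to the intestine. RAB-10 acts there between the early and the recycling endosome on the basolateral side. Values of rab-10 were 107, 113, 112, 117 and 124 CPM in SiO2 worms, 137, 121.97, 133, 126 and 121 CPM in Ag worms, and 129, 100.9, 104.1, 111 and 118 CPM in Control worms. Apart from Control sample 1, every Control sample lay below every Ag sample. The log2 fold change was 0.02 ± 0.0868 for SiO2 and 0.18 ± 0.0914 for Ag against Control, with adjusted p = 0.939 and 0.190, in that order (edgeR, Benjamini-Hochberg).

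The abundant rab-11.1, needed for apical recycling and for secretion of the eggshell layers in the early embryo, did not separate the groups either. It had 645, 596, 648, 616 and 613 CPM in SiO2 worms, 638, 637, 684, 609 and 617 CPM in Ag worms, and 592, 623, 678, 684 and 648 CPM in Control worms. The 15 samples formed a single range in which no group stood apart. With log2 fold changes of -0.05 ± 0.0744 for SiO2 and -0.02 ± 0.0816 for Ag against Control, the 95% intervals of the fold ran between 0.867 and 1.08 and between 0.876 and 1.11. Of the remaining Rabs of this step, rab-8 (delivery to the plasma membrane) averaged 72.9 ± 5.15 CPM in SiO2 worms, 81.8 ± 4.56 CPM in Ag worms and 80.7 ± 4.32 CPM in Control worms. For rab-35, which helps return the yolk receptor to the oocyte surface, the means were 54.7 ± 3.95, 56.8 ± 2.02 and 54.1 ± 5.03 CPM in the same groups.

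RME-1, an EHD-family ATPase, acts at the exit from the recycling endosome, and worms that lack it fill their intestinal cells with vacuoles. The gene rme-1 had 226, 225, 245, 275 and 244 CPM in SiO2 worms, 262, 280.3, 292, 306 and 288 CPM in Ag worms, and 216, 221, 233, 258 and 259 CPM in Control worms. All 5 Ag samples lay above all 5 Control samples, and they lay above the SiO2 samples with the exception of SiO2 sample 14, which fell among them. The log2 fold change was 0.27 ± 0.0885 for Ag against Control (1.203-fold, 95% interval 1.06 to 1.37), with an adjusted p of 0.0711 (edgeR, Benjamini-Hochberg). It was thus not called, although the filterByExpr gene filter and DESeq2 did call it, and over the 18 alternatives its adjusted p ranged between 0.0208 and 0.165. SiO2 against Control gave 0.04 ± 0.0877, and SiO2 against Ag gave -0.23 ± 0.0843 with an adjusted p of 0.124, which fell to 0.0436 without SiO2 sample 14.

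Retromer and its partners return cargo from endosomes to the Golgi. Its core subunit vps-35 had 72.3, 76.8, 87.7, 116 and 94.4 CPM in SiO2 worms, 87.2, 99.4, 106, 124 and 116 CPM in Ag worms, and 84.2, 71.3, 77.3, 91.5 and 97.7 CPM in Control worms. Ag samples 7 to 10 lay above all Control samples and Ag sample 6 fell among them. The difference for Ag against Control was 0.34 ± 0.115 on the log2 scale with an adjusted p of 0.0762 (edgeR, Benjamini-Hochberg), and it passed the threshold without Ag sample 6 (adjusted p = 0.0477) and with DESeq2. In SiO2 worms, sample 14 had the highest value and the log2 fold change against Control was 0.09 ± 0.125, ranging between -0.04 without sample 14 and 0.15 without sample 11.

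RME-8 is a DnaJ-domain protein of the endosome that works with retromer and sorting nexins. The rme-8 values were 149, 142.3, 147, 176 and 159 CPM in SiO2 worms, 143, 162, 167, 190.4 and 184 CPM in Ag worms, and 143, 141, 156, 158 and 158 CPM in Control worms. Groups overlapped, with the highest values in Ag samples 9 and 10. Its log2 fold change was 0.03 ± 0.0861 for SiO2 and 0.16 ± 0.0950 for Ag against Control. The sorting nexins did not pass the test, with snx-1 at -0.13 ± 0.0934 for SiO2 and -0.14 ± 0.0892 for Ag, and snx-3 at 0.11 ± 0.118 for SiO2 and 0.21 ± 0.118 for Ag.

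At the late endosome, rab-7 drives fusion with the lysosome. It had 149, 155, 162, 152 and 158 CPM in SiO2 worms, 156, 153, 155, 136 and 152 CPM in Ag worms, and 135, 144, 162, 183 and 155 CPM in Control worms. The Control samples were the most scattered, and they enclosed every exposed sample. Against Control the log2 fold change was -0.01 ± 0.0871 for SiO2 and -0.05 ± 0.0961 for Ag.

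The lysosomal membrane protein encoded by lmp-1 is the worm's counterpart of LAMP proteins and a marker of lysosomes. Its values were 204, 203, 224, 211 and 217 CPM in SiO2 worms, 190.2, 190.2, 215, 216 and 208 CPM in Ag worms, and 215, 226, 227, 274 and 263 CPM in Control worms. Most exposed samples lay below every Control sample, and SiO2 samples 13 and 15 and Ag sample 9 passed the lowest Control value of 215 CPM. The log2 fold change was -0.19 ± 0.0840 for SiO2 (adjusted p = 0.306) and -0.24 ± 0.0941 for Ag (adjusted p = 0.107), and no alternative called either one.

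**Figure D3:**
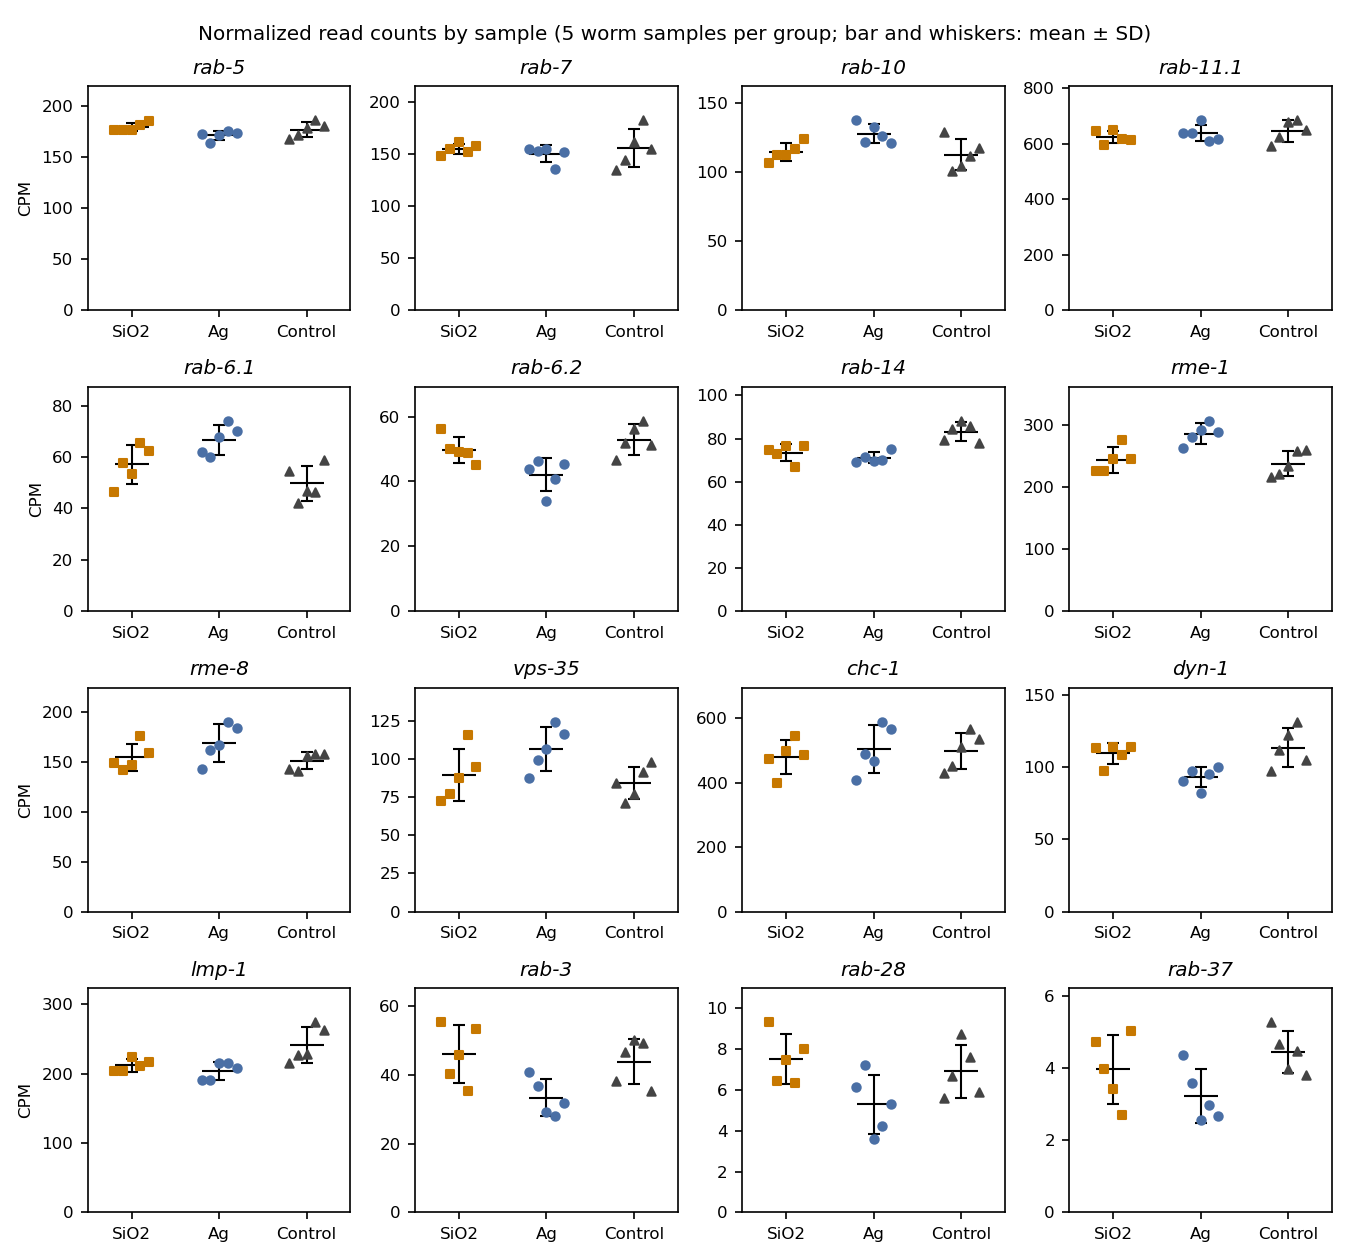
CPM of 16 of the genes in each of the 15 samples, with SiO2 left, Ag in the middle and Control right in each panel, axes starting at 0, and the bar and whiskers giving mean ± SD of 5 samples. The chc-1, rab-7 and rab-11.1 panels show overlapping groups, and in the rab-14 panel all 10 exposed samples lie below the Control samples.

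Among the Rabs of the secretory pathway and the Golgi stood the single called gene. RAB-6 proteins act at the Golgi in retrograde transport, and C. elegans has a pair of them. The gene rab-6.1 (chromosome III, 9004821 to 9005955 in WBcel235, minus strand, protein coding) had 46.5, 57.8, 53.5, 65.5 and 62.5 CPM in SiO2 worms, 61.9, 59.8, 67.7, 74.0 and 70.0 CPM in Ag worms, and 54.6, 42.1, 46.7, 46.4 and 59.0 CPM in Control worms. Every Ag sample exceeded every Control sample, by a narrow margin between Ag sample 7 and Control sample 5, and the SiO2 samples spread across both.

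For Ag against Control the rise of rab-6.1 was 0.42 ± 0.108 on the log2 scale, or 1.34-fold with a 95% interval of 1.14 to 1.57 (adjusted p = 0.0329, edgeR, Benjamini-Hochberg). The call was kept in 13 of 18 alternatives, with adjusted p between 0.00643 and 0.0968. It was lost without Control sample 2 (0.0796), 3 (0.0968) or 4 (0.0788) and without Ag sample 9 (0.0747) or 10 (0.0641), and the direction held throughout. Between SiO2 and Control the log2 fold change of rab-6.1 was 0.20 ± 0.1145 (adjusted p = 0.440), and between SiO2 and Ag it was -0.22 ± 0.111 (adjusted p = 0.258), so a difference between the exposures was not established. Of its 832 exonic bases, 19 are shared with zif-1 on the other strand, and the strand setting of the counting is not given in the sources used here.

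Its paralogue rab-6.2 (chromosome X, 17222475 to 17224465 in WBcel235, plus strand, protein coding) lay the other way, and its values are shown for that reason, having been seen first. SiO2 worms had 56.2, 50.1, 49.0, 48.8 and 44.99 CPM, Ag worms had 43.9, 46.4, 34.02, 40.7 and 45.4 CPM, and Control worms had 46.5, 51.8, 56.3, 58.7 and 51.3 CPM. Ag and Control did not overlap, though Ag sample 7 and Control sample 1 nearly touched. The log2 fold change for Ag against Control was -0.33 ± 0.107 with an adjusted p of 0.0671 (edgeR, Benjamini-Hochberg), which misses the threshold. It was called in 4 of 18 alternatives, with adjusted p between 0.0375 and 0.165.

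Set against each other per unit of length, rab-6.1 stood at 0.908 to 1.52 times the level of rab-6.2 in SiO2 samples, 1.41 to 2.18 times in Ag samples and 0.868 to 1.29 times in Control samples. Ag and Control samples did not overlap in this ratio, which follows from the lack of overlap in each gene and adds no further evidence. SiO2 samples overlapped both. The ratio also sets an autosomal gene against an X-linked gene. Among genes with at least 1 CPM, the median log2 fold change for Ag against Control was 0.05 on autosomes and -0.23 on the X chromosome. The ratio was formed after the values of both genes had been seen and was given no test. As the genes are close copies, reads that fit both could be treated differently by the 2 counting methods, and rab-6.1 remained called with the Kallisto estimates at 0.46 on the log2 scale.

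**Figure D4:**
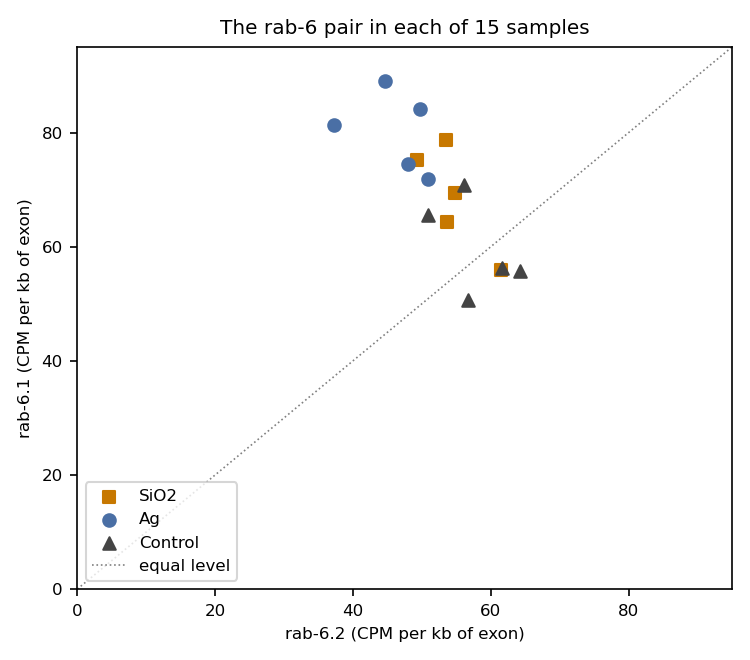
Level of rab-6.1 (vertical) against rab-6.2 (horizontal) in CPM per kb of exon, a point per sample, with squares for SiO2, circles for Ag, triangles for Control and a dotted line at equal levels. All 5 Ag samples sit above the line, with ratios of 1.41 to 2.18, and SiO2 samples 14 and 15 lie within their range, at 1.47 and 1.52.

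None of the other Rabs of the early secretory pathway was called in any comparison. The log2 fold changes for SiO2 and for Ag against Control were -0.06 and -0.06 for rab-1, -0.05 and -0.08 for rab-18 (a Rab of the endoplasmic reticulum and lipid droplets), -0.04 and 0.04 for rab-30 and 0.04 and 0.19 for rab-33, which are Golgi Rabs in mammals. For rab-19 and rab-39, to which no role was assigned here, they were 0.02 and -0.14 and 0.02 and 0.18. The rab-19 gene shares 263 of its 846 exonic bases with Y62E10A.20 on the same strand, which leaves its counts uncertain.

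The Rabs of neurons and secretory cells, rab-3, rab-28 and rab-37, did not pass the adjusted threshold in any comparison. RAB-3 is attached to synaptic vesicles and rab-3 is expressed throughout the nervous system. Its values, chosen for listing after they had been seen, were 55.3, 40.3, 45.8, 35.5 and 53.5 CPM in SiO2 worms, 40.8, 36.9, 29.2, 28.1 and 31.998 CPM in Ag worms, and 38.3, 46.6, 50.1, 49.3 and 35.4 CPM in Control worms. Ag samples were low on the whole but overlapped both other groups. The log2 fold change was -0.40 ± 0.132 for Ag against Control (adjusted p = 0.0723) and 0.46 ± 0.1405 for SiO2 against Ag (adjusted p = 0.0712), by edgeR with Benjamini-Hochberg adjustment. Each was called in 4 of 18 alternatives, with adjusted p between 0.0374 and 0.184 for Ag against Control and between 0.0227 and 0.193 for SiO2 against Ag.

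SiO2 against Control gave 0.06 ± 0.136 for rab-3. The gene shares 80 exonic bases with C18A3.18 on the same strand and 110 with damt-1 and C18A3.16 on the other. For rab-28 the log2 fold change was 0.11 ± 0.159 for SiO2, -0.38 ± 0.198 for Ag against Control and 0.49 ± 0.188 for SiO2 against Ag, the last with an adjusted p of 0.143. With the Kallisto estimates the difference between the exposures for rab-28 was 0.25, and the other alternatives reached 0.63. The low rab-37 had -0.16 ± 0.182 for SiO2 and -0.45 ± 0.185 for Ag against Control (adjusted p = 0.124).

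Markers of other tissues moved beside these genes, and their part in the values was not tested. Of all genes, 4.35% were called higher and 3.41% lower for Ag against Control, and 2.66% in either direction for SiO2 against Control. Of 10 neuron markers, 8 were lower in Ag than in Control worms at an unadjusted p under 0.05 (background 14.6%) and 1 of them, rgef-1, was called. Summed, they reached 838 to 1155 CPM in SiO2 worms, 845 to 1059 CPM in Ag worms and 1010 to 1242 CPM in Control worms. The 12 oocyte and germline markers, of which 3 were called higher in Ag worms (gld-1, glh-1 and pgl-1) and 0 in SiO2 worms, summed to 3434 to 7683 CPM in SiO2 worms, 5434 to 8665 CPM in Ag worms and 3746 to 6644 CPM in Control worms. The 11 sperm markers summed to 33.4 to 69.6 CPM, 29.4 to 114 CPM and 18.2 to 34.2 CPM in the same order, with 7 called higher in SiO2 worms and 3 in Ag worms.

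Tissues known for uptake were present in all samples. The 8 intestine markers summed to 43266 to 59087 CPM in SiO2 worms, 52892 to 58970 CPM in Ag worms and 46351 to 55826 CPM in Control worms, with vit-6, a yolk protein gene, called higher in Ag worms. These sums were almost wholly vit-2 and vit-6, and the other 6 markers, none of them called, summed to 1497 to 1919 CPM in SiO2 worms, 1696 to 2650.4 CPM in Ag worms and 1739 to 2015 CPM in Control worms. The 3 coelomocyte markers summed to 24.7 to 32.8 CPM in SiO2 worms, 16.1 to 25.5 CPM in Ag worms and 23.2 to 32.5 CPM in Control worms, and none was called. Markers of the late larval molt, of which 8 were found and none was called, were still present at day 1, with 1216 to 1685 CPM in SiO2 worms, 619 to 1418 CPM in Ag worms and 1214 to 1971 CPM in Control worms. Of the other lists, 3 of 7 epidermis markers, the low bli-1, col-12 and rol-6, were called higher in SiO2 worms, while the list as a whole had a median of -0.05 and summed to 2309 to 2834 CPM in SiO2 worms, 2181.7 to 2706 CPM in Ag worms and 2381 to 3036 CPM in Control worms. Further, 1 of 7 body wall muscle markers was called lower in Ag worms, and none of 3 gonadal sheath and spermatheca markers was called.

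The direction of the differences went in part with the chromosome of the gene, a split made after the values had been seen. The genes dyn-1, lmp-1, rab-6.2, rab-14, rab-37 and snx-1 lie on the X chromosome, where genes expressed in the germline are under-represented. All 6 had a negative log2 fold change in both exposures, with a median of -0.14 for SiO2 and -0.26 for Ag against Control. Of the 22 autosomal genes, 8 were negative for SiO2 and 9 for Ag, with medians of 0.02 and 0.03. Low values were thus not confined to the X chromosome. For Ag against Control, rab-3 on chromosome II (-0.40) and rab-28 on chromosome IV (-0.38) lay below every X-linked gene but rab-37. No alternative, leaving out any single sample included, changed the count of 6 of 6 in either exposure.

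This split was not particular to the 28 genes. Among genes with at least 1 CPM on average, 62.8% of the 2073 on the X chromosome were negative for SiO2 and 80.1% for Ag, with medians of -0.06 and -0.23, against 5467 and 5471 of 12167 autosomal genes, with medians of 0.02 and 0.05. The X chromosome held 14.6% to 17.5% of all counts in SiO2 samples, 13.8% to 15.6% in Ag samples and 15.2% to 17.1% in Control samples. In Ag worms the 6 X-linked values were -0.45 for rab-37, -0.33 for rab-6.2, -0.29 for dyn-1, -0.24 for lmp-1, -0.23 for rab-14 and -0.14 for snx-1, on both sides of the X median, and rab-6.1 on chromosome III was the gene furthest above the autosomal median. Whether the germline markers that were higher in Ag worms bear on this split was not tested.

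**Figure D5:**
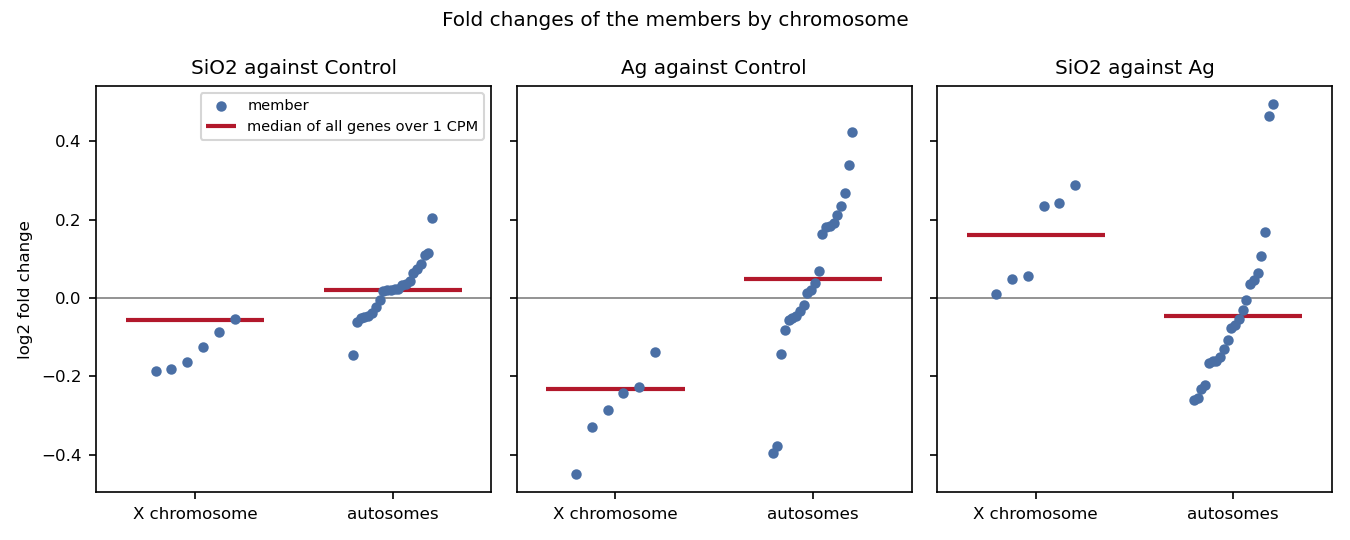
Log2 fold change of the 28 genes, a point per gene, for the 6 genes on the X chromosome and the 22 on autosomes in the 3 comparisons, with the median of all genes over 1 CPM as a red line. In the Ag panel the X-linked genes scatter around the X median of -0.23, and in the SiO2 panel they lie between -0.19 and -0.05, with an X median of -0.06.

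The genes that surround the Rabs on the same routes were read from 8 lists made by role, which matched 154 genes besides the 28. The lists were chosen with earlier results of these data known, so their counts are no independent comparison with all genes. For SiO2 against Control, 1 of the 154 was called (background 2.66%), and for SiO2 against Ag there were 2 (background 3.4%). The gene lipl-1, a lysosomal lipase, was the one shared by both counts, with 320.2 ± 21.7 CPM in SiO2 worms, 209 ± 45.2 CPM in Ag worms and 223 ± 21.8 CPM in Control worms (SD, n = 5 each). Every SiO2 sample exceeded all Ag and Control samples. It rose by 0.52 ± 0.0970 on the log2 scale against Control (adjusted p = 0.00831) and by 0.61 ± 0.117 against Ag (adjusted p = 0.00588), by edgeR with Benjamini-Hochberg adjustment, and was called in 18 of 18 alternatives for each. The second gene, rsef-1, related to the large Rab-like protein RASEF, was higher in SiO2 than in Ag worms by 0.68 ± 0.166 (adjusted p = 0.0283), a call kept in 10 of 18 alternatives. Its level was low, at 3.98 ± 0.306 CPM in SiO2 worms and 2.49 ± 0.317 CPM in Ag worms. The count of 2 became 19 of 154 without SiO2 sample 14. Calls over all genes rose as well when that sample was left out, from 720 to 2052 of 21120 tested. The rise was therefore not particular to these genes.

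For Ag against Control, 14 of the 154 genes were called, 6 higher and 8 lower, against a background of 7.76% of all genes. No gene was called among the 17 of the ESCRT list or the 22 of retromer and recycling. On the side of the early endosome and fusion, rabn-5, the counterpart of the RAB-5 effector rabaptin, was higher by 0.43 ± 0.0973 (adjusted p = 0.0209), and tbc-2, which switches RAB-5 off, was higher by 0.47 ± 0.122 (adjusted p = 0.0353). The tethering subunits vps-33.1 and vps-8 were higher by 0.42 ± 0.0987 (adjusted p = 0.0228) and 0.37 ± 0.0962 (adjusted p = 0.0341). RAB-5's own gene differed by -0.05 in the same comparison. The list of Rab regulators and effectors, which holds rabn-5 and tbc-2, showed no common direction. Of its 31 genes, 2 were called higher and 1 lower, and the median was 0.03. At an unadjusted p under 0.05, it had 6 genes higher and 7 lower. The list of tethering and fusion genes had 2 of 17 called higher and 0 lower, with a median of 0.13.

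In the list of uptake receptors and caveolins, 3 of 13 genes were called lower and none higher, with a median of -0.06 over the list. Of all genes, 3.41% were called lower and 4.35% higher. At an unadjusted p under 0.05, the list had 4 genes lower and 2 higher. Because the lists were chosen with earlier results known, these counts are not read as a result about uptake receptors. The caveolin gene cav-1 was lower, at -0.56 ± 0.134 on the log2 scale (adjusted p = 0.0254), and lrp-1, a megalin-type receptor of the epidermis, at -0.45 ± 0.119 (adjusted p = 0.0367). In SiO2 worms cav-1 was also lower than in Control worms, at -0.30 ± 0.102, and was not called (adjusted p = 0.145). SiO2 against Ag was not called for cav-1 either (adjusted p = 0.264), so a difference between the exposures was not established. For Ag against Control, the yolk receptor gene rme-2 of the same list lay the other way at 0.61 ± 0.196 and was not called (adjusted p = 0.0650). It is named here after its value had been seen. The clathrin adaptor AP-2 showed aps-2 at -0.37 ± 0.0998 (adjusted p = 0.0370) and dpy-23 at -0.35 ± 0.0993 (adjusted p = 0.0430), both X-linked, in edgeR's quasi-likelihood test. In the lysosomal list, the cathepsin L gene cpl-1 was higher by 0.31 ± 0.0877 (adjusted p = 0.0430) and hlh-30, a transcription factor of lysosome and autophagy genes, was lower, at -0.35 ± 0.0974 (adjusted p = 0.0407). These calls were less firm than that of lipl-1, for the count of 14 fell to 0 when Control sample 3 was left out and reached 17 without Control sample 5. Calls over all genes moved the same way, from 1604 to 353 and to 1833 in that order. Of 18 alternatives, rabn-5 was called in 16, cav-1 in 14, dpy-23 in 8 and cpl-1 in 7. The cpl-1 call was lost whenever any single sample was left out.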

How the data were processed

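Total RNA of 15 whole-worm samples was sequenced from one end to 100 bases. Per the methods, the authors ran Trim Galore 0.4.5, aligned the trimmed reads to WBcel235 with HISAT2 2.1.0 and deposited raw counts per gene made with HTSeq 0.9.1 (intersection-strict, Ensembl release 91); intersection-strict counting leaves out reads not wholly inside 1 gene. The deposited Kallisto and tximport estimated counts, rounded here, served as an alternative. Versions and settings of the last 2 tools are not given in the sources used here. Symbols, lengths and positions came from Ensembl release 115.

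Counts were tested with edgeR 4.0.16 in R 4.3.3 (glmQLFit, glmQLFTest, TMM, genes with at least 3 counts in the samples fitted, Benjamini-Hochberg), with 10 samples for an exposure against Control and all 15 for SiO2 against Ag. Standard errors are the log2 fold change divided by the square root of F. The fits were tested on simulated data with known changes. These were placed only in genes above a minimum mean level, which rab-11.2, rab-37 and rsef-1 do not reach. The rates that follow therefore do not cover such low genes. Changes of 2-fold were called in 97% of cases for SiO2 against Control, 95% for Ag against Control and 99% for SiO2 against Ag. Changes of 1.5-fold were called in only 62%, 55% and 48% in the same order, so many changes of that size would go uncalled. Alternatives were RLE or no scaling, 2 other filters, the likelihood ratio test, DESeq2 1.42.0, other samples in the fit, Kallisto estimates and leaving out each sample. Values by sample are given for called genes and 10 landmark genes (rab-5, rab-7, rab-10, rab-11.1, rme-1, rme-8, chc-1, dyn-1, vps-35, lmp-1), and for others where the text says so. At most 12 other called endocytic genes with at least 1 CPM were named, by adjusted p. The genes and lists were chosen with earlier results of these data known.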

Additional observations from a re-analysis of the deposited data

Results flagged for a closer look

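In 84 groups of 5 samples, 6 held a sample whose gap to its nearest neighbour took up most of the group's range by Dixon's criterion at 95%, where chance gives about 1 in 20, or 4.2 groups. The gene rab-30 had such a low sample in each group, with 16.8 CPM in SiO2 sample 14, 17.8 CPM in Ag sample 8 and 17.98 CPM in Control sample 2. SiO2 sample 14 was also high for rab-33, at 37.9 CPM. Ag sample 9 was low for rab-7, at 136 CPM, and Control sample 1 was high for rab-39, at 39.4 CPM. The exposures differed in their effect, by the direct comparison of SiO2 with Ag, for lipl-1 (log2 difference 0.61) and, less firmly, for rsef-1 (0.68). The rsef-1 call was kept in 10 of 18 alternatives. Neither exposure was called against Control for rsef-1 (adjusted p = 0.573 for SiO2 and 0.134 for Ag, edgeR, Benjamini-Hochberg). None of the 28 genes differed in that comparison at an adjusted p under 0.05 in edgeR's quasi-likelihood test, with 7 at an unadjusted p under 0.05, 1 by the likelihood ratio test and 2 by DESeq2.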

How the results depend on the processing

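No paired analysis was possible because sample numbers run on across the groups and none recurs. The 28 genes gave 0 calls for SiO2 against Control under every alternative. The count of 1 for Ag against Control became 4 with filterByExpr, 3 with the likelihood ratio test (background 13.4%), 6 with DESeq2 (background 20%), 2 with all 15 samples in the fit, and 0 to 3 when samples were left out in turn. For Ag against Control, the share of all genes called with filterByExpr or with all 15 samples is not given here. Counts under those settings are therefore not read as a result about the genes counted. For SiO2 against Ag the count of 0 became 1 with the likelihood ratio test (background 6.96%), 2 with DESeq2 (background 10.7%) and 0 to 2 when samples were left out. Over all genes, SiO2 against Control gave 1095 (likelihood ratio), 995 (DESeq2), 222 (all 15 samples) and 251 to 853 (samples left out, lowest without Control sample 1). Ag against Control gave 2763, 3167 and 353 (without Control sample 3) to 1833. SiO2 against Ag gave 1474, 1647, 409 with the 2 groups alone, and 392 (without SiO2 sample 13) to 2052 (without SiO2 sample 14). The other endocytic genes gave 2 with DESeq2 (background 5.55%) and 1 with any sample left out for SiO2 against Control. They gave for Ag against Control 22 with filterByExpr, 23 with the likelihood ratio test (background 13.4%), 26 with DESeq2 (background 20%) and 0 to 17 with samples left out. For SiO2 against Ag they gave 6, 12, 1 with the 2 groups alone, and 1 to 19 (without SiO2 sample 14). The cause of these shifts was not tested.

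Of the 84 values of 28 genes in 3 comparisons, 29 changed sign under at least 1 alternative. For rab-11.2 all 3 did, with ranges of -0.20 to 0.26 for SiO2 against Control, -0.26 to 0.17 for Ag against Control and -0.18 to 0.33 for SiO2 against Ag. The other 26 were log2 fold changes of at most 0.114 in size, the largest being rab-28 for SiO2 against Control, at -0.0059 with Kallisto. The following are those of the landmark genes. Between Ag and Control, chc-1 was -0.0102 with library size only and -0.0032 with Kallisto. For SiO2 against Ag, lmp-1 was -0.0106 with Kallisto and rab-7 -0.003 with filterByExpr and -0.0105 with Kallisto. With samples left out, SiO2 against Control ranged between -0.11 and 0.0061 for chc-1, -0.0136 and 0.0677 for rab-10, -0.0076 and 0.032 for rab-5, -0.0612 and 0.0525 for rab-7, -0.0232 and 0.0614 for rme-1, -0.0273 and 0.0606 for rme-8, and -0.0365 and 0.149 for vps-35. Ag against Control ranged between -0.0493 and 0.0827 for chc-1, -0.0638 and 0.0043 for rab-11.1, and -0.114 and 0.0135 for rab-7. The alternatives for single endocytic genes outside the 28 and for the count by chromosome were added after seeing the data. Depth limited rab-11.2 most.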
